A study of Homo sapiens with 8 samples.

Results

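The genes described here encode proteins that build ribosomes in the nucleolus, grouped by the step they serve, in CCRF-CEM cells, an established line of human leukaemia of the T-cell lineage (T-ALL). The list held 35 genes, chosen by name, and each was looked for by symbol among the probe sets of an Affymetrix expression array. Of these, 29 genes had a probe set, 1 each, among 21448 probe sets in all, and 6 (NOP56, DKC1, WDR43, BOP1, PPAN and GNL3) had no probe set under their names here and were not analysed. The measured genes comprised 6 of RNA polymerase I (Pol I) transcription, 4 of small nucleolar ribonucleoproteins (snoRNPs), 8 of small subunit processing, 10 of large subunit assembly and 1 of the ribonucleases MRP and P.

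The groups were cells given OICR-9429 at 1 µM for 1 h (4 arrays) and cells left untreated (4 arrays). OICR-9429 binds WDR5, a subunit of histone methyltransferase complexes that also contacts MYC. All 8 cultures were then set in bovine type I collagen at 1.7 mg/mL for 1 h before RNA was taken, so the groups share the gel. The labels mention no solvent for the untreated cells, and they number 4 biological replicates in each group but do not say how the cultures were kept apart, so a p-value here speaks only of the variation among these samples, which may be technical.

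Ribosome production starts with Pol I, which copies the ribosomal DNA into 1 long precursor RNA. The snoRNPs then guide methylation and pseudouridylation of that RNA, and separate sets of helicases, scaffolds, methyltransferases and nucleases cut it and fold it into the small and the large subunit. The genes for these factors are a classic target group of MYC, a transcription factor that drives growth in T-ALL.

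The labelled cell type was checked first. Of 11 T-cell genes 10 were measured, and 10 lay above 4.83, the 95th percentile of 349 olfactory receptor genes, which lymphoid cells are not known to use. CD3E stood highest at 11.82 and PTCRA lowest at 6.08 on the log2 scale. Of 23 markers of B, myeloid, erythroid, fibroblast and epithelial cells 20 were measured, and 5 lay at or below that percentile, while CD79A was at 9.42 and COL1A2 at 8.11. Array medians ran from 6.38 to 6.46. All 29 ribosome genes lay above the olfactory percentile, between 6.46 (NOP2) and 11.50 (NCL), with a median of 8.78. The median level of all probe sets, 6.445, also lay above that percentile, so passing it does not set these genes apart. These values are log2 levels of probe sets, which differ in probe affinity, so levels are not set against each other between genes.

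Promoter sequences of these genes are given before their values, as a description. Their part in the differences between replicate numbers, described further on, was not tested. RefSeq start sites (GRCh38.p14) with 250 bases before and 50 after them were available for 24 of the 29 measured genes, and none was available for NOLC1, NOP58, RRP1B, RRS1 and RRP12. The E-box CACGTG, the sequence that MYC with MAX binds and which reads the same on both strands, stood in a window of 12 of the 24 genes (50%), against 2396 of 27305 genes in the whole table (8.77%) and 31 of 113 other genes of ribosome biogenesis (27.4%). By step it stood in 2 of 6 Pol I genes, 2 of 4 snoRNP genes, 6 of 8 small subunit genes and 4 of 10 large subunit genes, counted over listed genes with a window. The 6 measured genes whose E-box begins before the start site are shown from base -90 to base 10 (no base 0), written 5′ to 3′, with the E-box in capitals. In order they lie at chr10:68956557-68956656 (forward strand), chr4:4290012-4290111 (reverse strand), chr11:34105539-34105638 (forward strand), chr3:51941895-51941994 (reverse strand), chr12:101280015-101280114 (forward strand) and chr16:69132559-69132658 (forward strand).
DDX21: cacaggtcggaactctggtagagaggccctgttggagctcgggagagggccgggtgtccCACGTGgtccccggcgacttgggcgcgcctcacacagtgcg
LYAR: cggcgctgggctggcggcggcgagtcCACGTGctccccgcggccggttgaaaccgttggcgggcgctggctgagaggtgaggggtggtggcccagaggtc
NAT10: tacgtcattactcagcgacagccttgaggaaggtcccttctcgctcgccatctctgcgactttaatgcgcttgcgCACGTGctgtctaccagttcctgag
RRP9: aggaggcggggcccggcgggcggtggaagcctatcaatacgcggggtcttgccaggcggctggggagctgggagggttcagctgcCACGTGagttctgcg
UTP20: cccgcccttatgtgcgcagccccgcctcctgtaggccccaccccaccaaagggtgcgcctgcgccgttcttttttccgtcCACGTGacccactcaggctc
UTP4: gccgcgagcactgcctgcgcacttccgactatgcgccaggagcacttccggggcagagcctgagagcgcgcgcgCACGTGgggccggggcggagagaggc
The E-box began at base -31 in DDX21, -64 in LYAR, -15 in NAT10, -5 in RRP9, -10 in UTP20 and -16 in UTP4. DDX21 and LYAR have 2 annotated starts each, and only the start with the E-box is shown. In MRTO4, NOP14, NOP2, MYBBP1A, FBL and PES1 it began 7 to 36 bases into the transcript.

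Other motifs common in promoters of housekeeping genes were also frequent. Both strands were searched. The ETS core CCGGAAG stood in 10 of the 24 genes (41.7%), against 12.2% of all genes and 39.8% of the other ribosome biogenesis genes. The NRF1 site (GCGC and TGCGC with any 1 base between them) stood in 8 (33.3%), against 6.98% and 15.9%, and in NAT10 it shares a base with the E-box. The YY1 core AAGATGGC stood in 2 (8.33%), against 3.52% and 10.6%. The windows of the measured genes had a median GC content of 63.7%, against 58.7% for all windows. Their median count of the base pair CG in sequence was 25, against 14 for all windows and 25 for the other ribosome biogenesis genes. The E-box, the ETS core and the NRF1 site each contain CG. The 12 genes with an E-box and the 12 without had median differences of 0.88 and 0.75 at replicate number 1, -0.44 and -0.25 at number 2, 0.29 and 0.21 at number 3, and -0.50 and -0.57 at number 4. No test was made of these shares, and a match is not evidence of binding.

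OICR-9429 made no difference that passed the test in any step. With limma, 0 of 29 genes passed an adjusted p of 0.05, 0 had an unadjusted p under 0.05, and 0 had groups whose values did not overlap. Over all probe sets the background was 0% (0 of 21448), 0.49% (105) and 0.737% (158). With the replicate number as a block, a fit that removes what same-numbered arrays share, 0 of 29 passed either limit, against 0% and 5.55% (1191) of all probe sets. The difference between OICR-9429 and untreated cells was above 0 in 20 genes and below 0 in 8, with a median of 0.02 on the log2 scale. Over all probe sets it was above 0 in 51.1%, with a median of 0.0050. Among the 10721 probe sets above the median level it was above 0 in 6159, with a median of 0.0225.

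**Figure D1:**
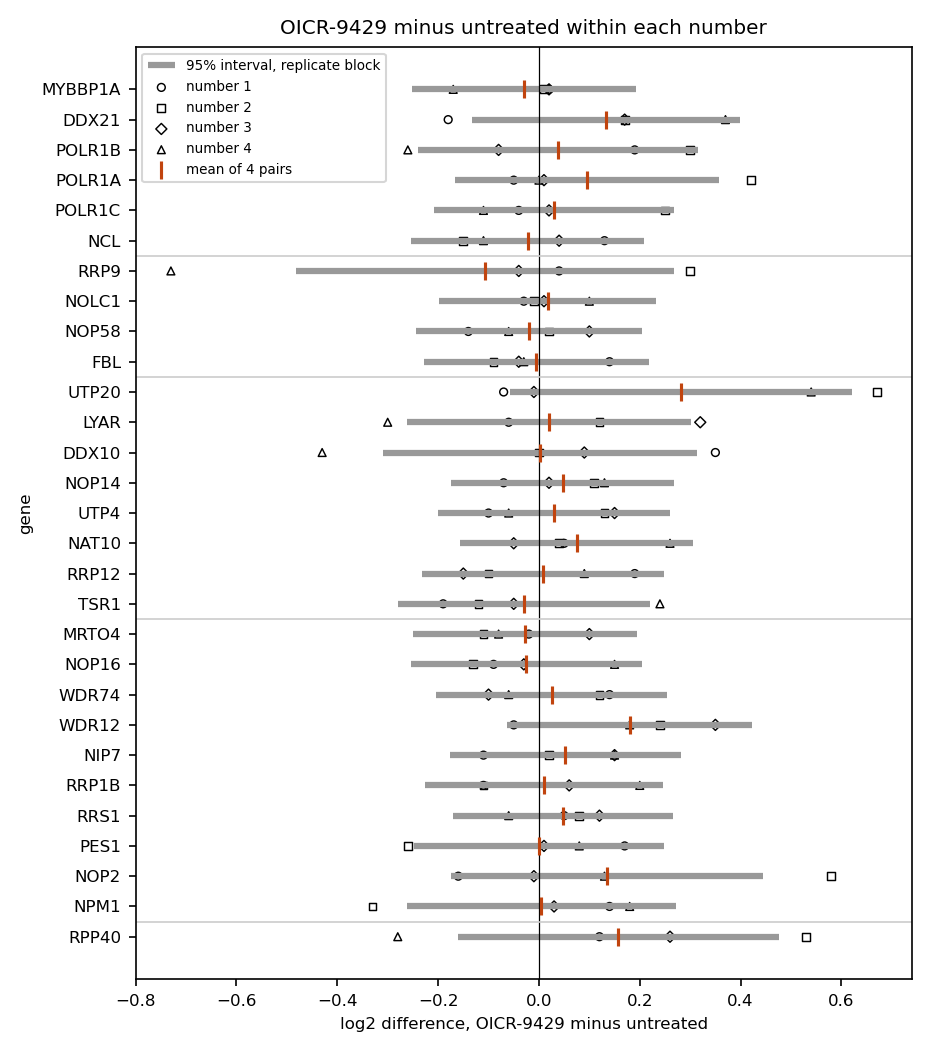
Log2 difference, OICR-9429 minus untreated, for each measured gene (rows, grouped by step): open symbols are the 4 replicate numbers, the orange bar is their mean and the grey line its 95% interval from the fit with the replicate block. The means lie between -0.11 (RRP9) and 0.28 (UTP20), and every grey line crosses 0.

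Sizes were bounded by the 95% intervals, which are not adjusted for the number of genes. With the replicate block, the interval of 28 of 29 genes lay within 1.5-fold, and that of UTP20 reached from -0.06 to 0.62. Of all 21448 probe sets, 19448 lay within 1.5-fold in that fit. Without the block 6 of 29 genes lay within 1.5-fold and 21 within 2-fold, against 9150 and 19191 of all probe sets. The median SE of the 29 genes was 0.10 with and 0.32 without the block, against 0.115 and 0.221 over all probe sets. For single genes below, the SE and p of an OICR-9429 difference are without the block unless stated. They therefore include the differences between numbers.

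Pol I genes were near 0. POLR1A, the largest catalytic subunit, measured 9.09, 8.47, 9.08 and 8.26 in OICR-9429 cells of numbers 1 to 4, against 9.14, 8.05, 9.07 and 8.26 in untreated cells, a difference of 0.10 ± 0.31 (SE, limma, unadjusted p = 0.764). Only the arrays of number 2 lay apart by more than 0.1, and the groups overlapped. MYBBP1A, a nucleolar protein that binds Pol I, differed by -0.03 ± 0.52 (SE 0.096 with the block), with within-number differences of 0.02, 0.01, 0.02 and -0.17. The median within-number difference of the 6 Pol I genes was -0.01, 0.21, 0.02 and -0.11 for numbers 1 to 4, so the sign changed between numbers.

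The snoRNP genes had a median of 0.0050, 0.0050, -0.015 and -0.045 for numbers 1 to 4. RRP9, which belongs to the snoRNP that starts small subunit processing, measured 7.72, 6.36, 6.38 and 5.90 in OICR-9429 cells, against 7.68, 6.06, 6.42 and 6.63 in untreated cells. Its mean difference of -0.11 ± 0.44 (SE, limma, unadjusted p = 0.811) joined 0.30 at number 2 and -0.73 at number 4. FBL, the methyltransferase of box C/D snoRNPs, differed by -0.0050, and NOP58, a scaffold of the same particles, by -0.02.

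Small subunit genes held the member nearest the threshold in the block fit. UTP20, a large scaffold of the particle that processes the small subunit, measured 8.41, 7.79, 7.94 and 5.88 in OICR-9429 cells, against 8.48, 7.12, 7.95 and 5.34 in untreated cells. The difference of 0.28 came from numbers 2 and 4 (0.67 and 0.54), while numbers 1 and 3 stood at -0.07 and -0.01. Its unadjusted p was 0.702 without the block, and 0.0911 with it (limma, adjusted p = 0.841). The step's median was -0.065, 0.075, 0.0050 and 0.11 for numbers 1 to 4.

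Large subunit genes had a median of -0.035, -0.045, 0.045 and 0.14 for numbers 1 to 4. NOP2, an rRNA cytosine methyltransferase, had the smallest unadjusted p of the 29 genes without the block (0.566, limma). It measured 6.52, 6.45, 6.29 and 6.87 in OICR-9429 cells, against 6.68, 5.87, 6.30 and 6.74 in untreated cells, and number 2 alone differed by more than 0.16. WDR12, which joins PES1 and BOP1 in 1 complex, differed by 0.18 (block unadjusted p = 0.126, limma). RPP40, a subunit shared by RNase MRP and RNase P, differed by 0.16 ± 0.52, with 0.12, 0.53, 0.26 and -0.28 for numbers 1 to 4. Of the 29 genes, 0 had the same sign in all 4 numbers, against 12.6% of all probe sets.

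The replicate numbers differed much more than the treatment. Number accounted for 73.0% to 99.8% of the variance of the 29 genes over the 8 arrays (median 96.7%). Treatment accounted for at most 5.20% (median 0.137%). These shares were computed for the 29 genes only, so no share over all probe sets stands beside them. With 4 levels against 2, number would take the larger share on average even without any difference. When all numbers were tested at once with limma, 26 of 29 genes passed, against 50.3% of all probe sets and 71.7% of the 10721 above the median level. RRP12 (adjusted p = 0.0556), NOP2 (0.064) and TSR1 (0.196) did not pass. Same-numbered arrays resemble each other, so these p-values rest on how steady the difference between numbers was over the OICR-9429 and untreated arrays, not on the spread between separate cultures. The numbers carry no order, and each contrast below sets 1 number against the mean of the other 3, so the 4 contrasts share their arrays.

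**Figure D2:**
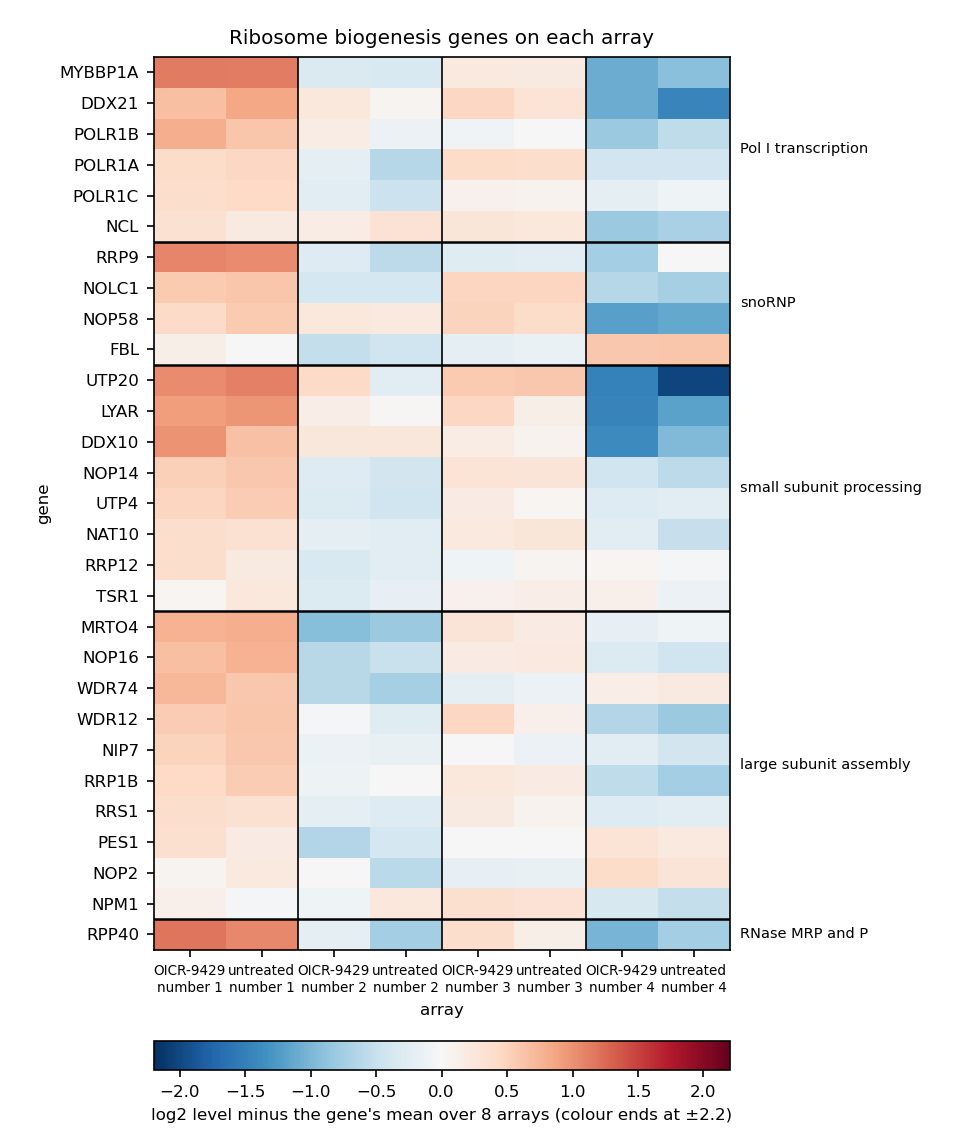
Log2 level of each measured gene on each array minus the gene's mean over the 8 arrays. Rows are genes grouped by step and columns are arrays, with the OICR-9429 array left of the untreated array of each number. Both columns of a number share their colours: 22 of 29 genes are highest at number 1 in both groups, and 15 are lowest at number 4 in both.

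Number 1 had the highest levels of ribosome genes. All 29 genes lay above the mean of the other numbers, by 0.05 (NPM1) to 1.51 (MYBBP1A), with a median of 0.72, whereas all probe sets had a median of -0.03 and 46.2% above 0. With limma 22 of 29 passed as higher and 0 as lower, against 10.6% of all probe sets higher and 6.14% lower, and 18.7% higher among those above the median level. In 22 genes number 1 was highest among both the OICR-9429 arrays and the untreated arrays, against 10.9% of all probe sets. The same number was highest in both groups in 25 genes and lowest in both in 24, against 59.6% and 55.5%. Of the 10721 probe sets above the median level, 6506 lay above 0 at number 1 (median 0.10) and 1900 were highest there in both groups. The same number was highest in both groups in 7597 of the 10721 and lowest in both in 7987. After quantile normalization NPM1 fell below 0 at number 1 (-0.02) and the other 28 stayed above it. Without number 2, 28 lay above 0. Without number 4, NPM1 was again below 0 (-0.165) and 16 genes passed as higher, against 5.85% of all probe sets.

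Number 4 had the lowest levels of most, and here the members split. It was lower in 20 genes and higher in 3, against 25.5% lower and 26.3% higher of all probe sets, and 41.6% lower (26.3% higher) among those above the median level. Of the 29 genes 25 lay below 0, against 43.8% of all probe sets, and 15 were lowest at number 4 in both groups, against 25.9%. The median was -0.56, against 0.08 for all probe sets. All 29 genes lay above the median level. Of the 10721 probe sets above that level, 6086 lay below 0 and 4448 were lowest at number 4 in both groups, with a median of -0.15. The 3 higher genes were FBL, PES1 and NOP2, and the other 6 (POLR1C, RRP9, RRP12, TSR1, WDR74 and MRTO4) did not pass. Quantile normalization put POLR1C, RRP12, TSR1 and MRTO4 above 0 at number 4, as values that did not pass before it. It left 14 of 29 genes lower and 4 higher, against 22.7% and 28% of all probe sets.

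Numbers 2 and 3 stood between these. At number 2, 12 of 29 genes were lower and 0 higher, against 11.6% and 15.4% of all probe sets (19% lower among those above the median level), with a median of -0.37. There 21 lay below 0 and 9 were lowest in both groups, against 51.1% and 13.1%. Of the 10721 probe sets above the median level, 5190 lay below 0 at number 2 and 2085 were lowest there in both groups. At number 3, NOLC1 alone was higher (limma, adjusted p = 0.0395) and 0 were lower, against 1.18% and 0.2% of all probe sets (1.5% higher above the median level). Of the 29 genes 21 lay above 0 at number 3, against 47.5%, with a median of 0.27. Above the median level, 6249 of 10721 probe sets lay above 0. Without number 4 all 29 genes lay below 0 at number 2, 17 passed as lower (7.86% of all probe sets), and the median was -0.53. Without number 1 only 5 passed as lower at number 2 and 6 as higher, against 12.5% and 17% of all probe sets. In that fit 12 passed as higher at number 3, against 5.95%.

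**Figure D3:**
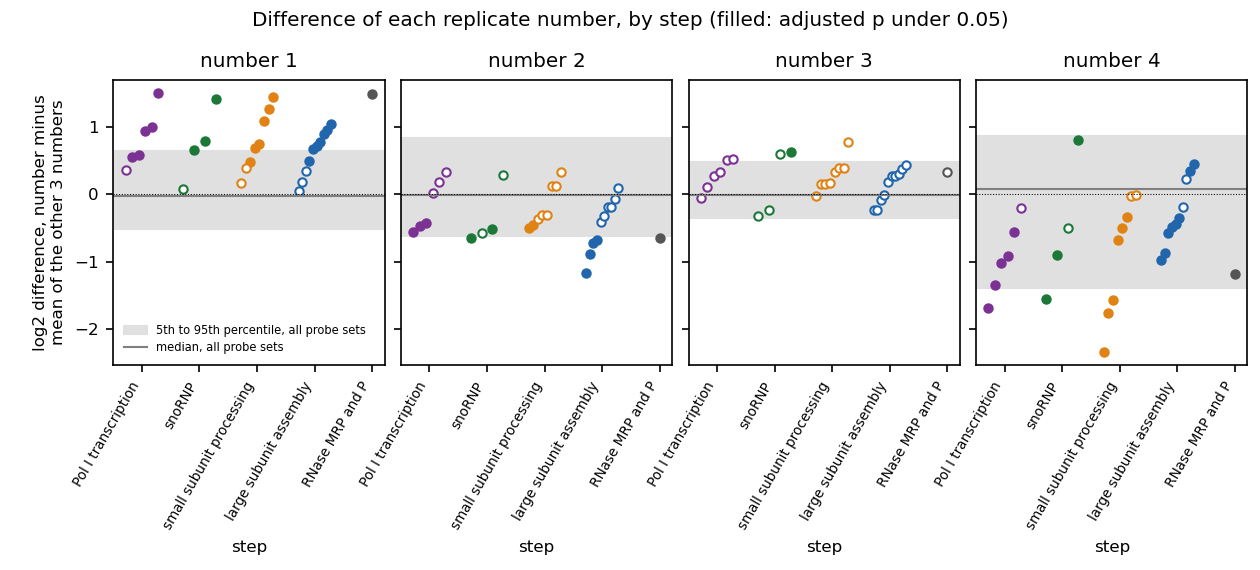
Log2 difference of each replicate number from the mean of the remaining 3, by step, 1 point a gene. Filled points passed an adjusted p of 0.05 in limma, the grey band is the 5th to 95th percentile of all 21448 probe sets and the grey line their median. At number 1, 18 of 29 points lie above the band's upper edge of 0.64, and at number 4 the points spread from 0.80 (FBL) to -2.34 (UTP20).

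Among Pol I genes 5 of 6 were higher at number 1 and 5 of 6 lower at number 4. MYBBP1A had the clearest difference between numbers of all 29 genes (limma, adjusted p = 0.0002). It measured 8.95 in OICR-9429 and 8.93 in untreated cells of number 1, against 7.49, 8.02 and 6.72 in OICR-9429 and 7.48, 8 and 6.89 in untreated cells of numbers 2 to 4. Both arrays of number 1 lay above, and both of number 4 below, every other array, with differences of 1.51 and -1.34 (± 0.11, SE). DDX21, an RNA helicase of Pol I transcription and rRNA processing, was at 8.97 (OICR-9429) and 8.60 (untreated) at number 4, against 10.11 to 10.90 elsewhere, a difference of -1.70 ± 0.13.

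The polymerase subunits moved less than MYBBP1A and DDX21 at numbers 1 and 4. POLR1B, the second largest subunit, differed by 0.95 ± 0.14 at number 1 and by -0.92 at number 4, both of which passed. POLR1C, shared with RNA polymerase III, measured 9.17, 8.55, 8.87 and 8.57 in OICR-9429 cells, against 9.21, 8.30, 8.85 and 8.68 in untreated cells. It was higher at number 1 (0.55) and lower at number 2 (-0.47), with -0.20 at number 4, which did not pass. Without number 1, POLR1C at number 2 (-0.32) did not pass and its adjusted p for any difference was 0.1275 (limma). NCL, nucleolin, an abundant RNA-binding protein of the nucleolus, lay at 10.68 in OICR-9429 and 10.79 in untreated cells of number 4, against 11.67 to 11.83 in the other OICR-9429 cells and 11.70 to 11.82 in the other untreated cells. NCL passed at number 4 only, and without that number its adjusted p was 0.994 (limma), and that of DDX21 was 0.0687.

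The snoRNP genes went opposite ways at number 4. NOP58 measured 9.07 in OICR-9429 and 9.13 in untreated cells of number 4, against 10.69, 10.49 and 10.76 in OICR-9429 and 10.83, 10.47 and 10.66 in untreated cells of numbers 1 to 3, a difference of -1.55 ± 0.11 (limma, adjusted p = 4.52e-05). FBL was at 11.43 (OICR-9429) and 11.46 (untreated) at number 4, against 10.31 to 10.97 elsewhere, a difference of 0.80 ± 0.11 (limma, adjusted p = 0.000635). Both proteins sit in the same particle, and their arrays of number 4 lay outside the range of the others in opposite directions. Without number 4, neither passed the test of any difference (adjusted p = 0.342 for NOP58 and 0.0799 for FBL, limma).

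NOLC1, a chaperone of snoRNPs, passed at every number, at 0.79, -0.52, 0.63 and -0.90 (± 0.11, SE) for numbers 1 to 4. At number 3 NOLC1 no longer passed after quantile normalization (0.58) or without number 4 (0.37), and at number 2 it did not without number 1 (-0.29) or number 3 (-0.35). RRP9 was 1.41 ± 0.19 higher at number 1 and had the largest within-number gap, between 5.90 in OICR-9429 and 6.63 in untreated cells of number 4. Without number 1 its adjusted p was 0.788 (limma).

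Of the small subunit genes 6 of 8 were lower at number 4. There UTP20 (values above) differed by -2.34 ± 0.17, LYAR by -1.76 ± 0.14 and DDX10 by -1.57 ± 0.16. LYAR is a zinc-finger protein of early rRNA processing and DDX10 a helicase. LYAR was at 7.41 (OICR-9429) and 7.71 (untreated) at number 4, against 8.91 to 9.86 elsewhere. The same 3 genes were higher at number 1, by 1.44, 1.26 and 1.09.

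TSR1, which acts late and partly in the cytoplasm, had the narrowest range of the 29. It measured 8.96, 8.63, 9.02 and 9.03 in OICR-9429 cells, against 9.15, 8.75, 9.07 and 8.79 in untreated cells, and 0 of its 4 contrasts passed. RRP12, an assembly and export factor of the small subunit, also had 0. UTP4, NOP14 and NAT10, an RNA cytidine acetyltransferase, lay between, with 0.69, 0.74 and 0.47 at number 1 and -0.34, -0.68 and -0.49 at number 4, all of which passed. UTP4 at number 4 did not pass after quantile normalization (-0.17) or without number 1 (-0.125) or number 3 (-0.33), and without number 1 its adjusted p for any difference was 0.0676 (limma). NAT10 passed at neither number after quantile normalization (0.37 and -0.24). It did not pass at number 1 without number 2 (0.42) or number 4 (0.35), nor at number 4 without number 1 (-0.38).

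**Figure D4:**
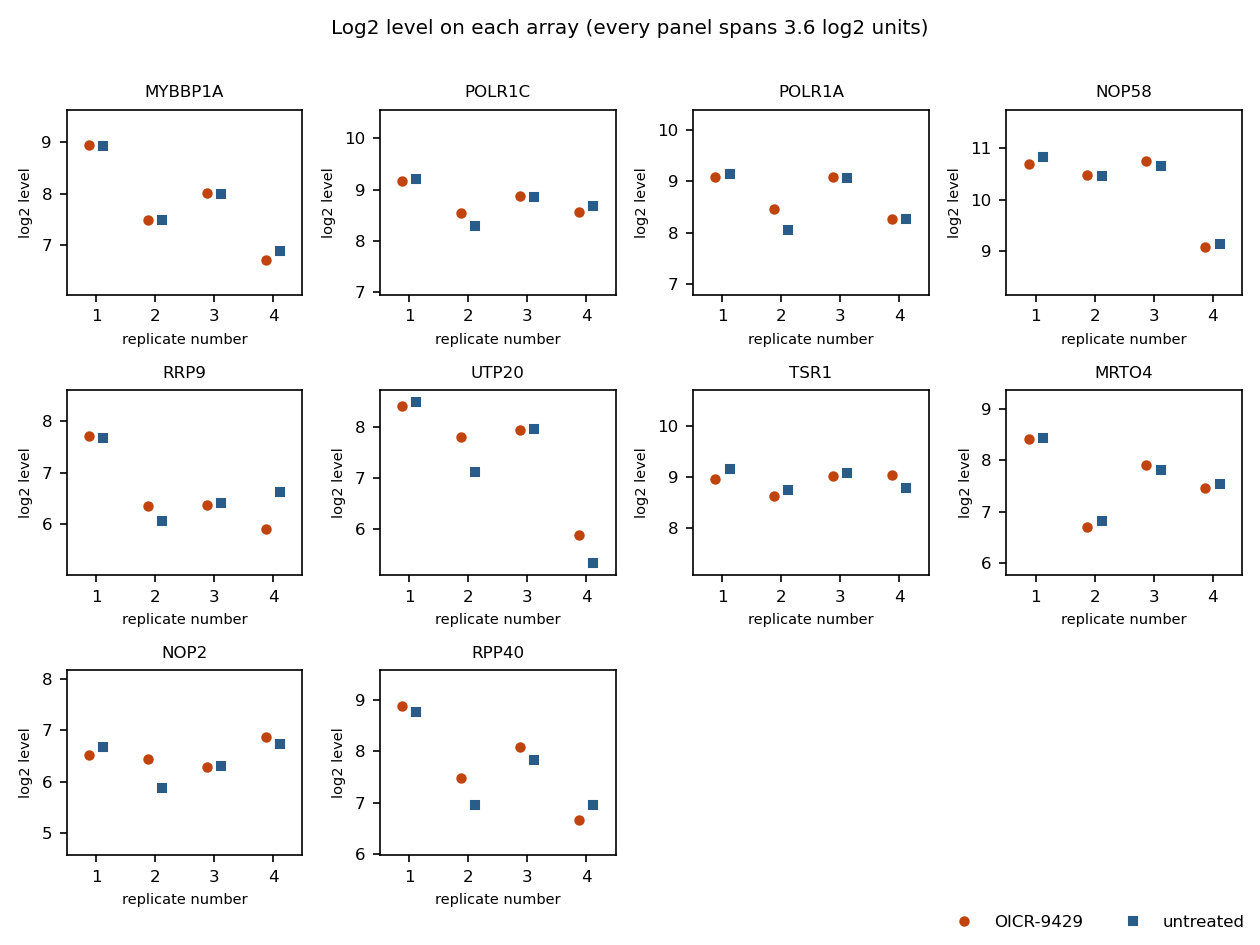
Log2 level on each array of the genes that differed most and least between numbers in each step, and of those with the smallest unadjusted p for treatment. Circles are OICR-9429 and squares untreated cells, and every panel spans the same 3.6 log2 units. MYBBP1A runs from 6.72 to 8.95 and UTP20 from 5.34 to 8.48, while TSR1 stays between 8.63 and 9.15.

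Among large subunit genes 7 of 10 were higher at number 1, 4 lower at number 2, and 6 lower and 2 higher at number 4. MRTO4, a relative of the ribosomal stalk protein that holds its place during assembly, measured 6.71 in OICR-9429 and 6.82 in untreated cells of number 2, against 8.41, 7.92 and 7.46 in OICR-9429 and 8.43, 7.82 and 7.54 in untreated cells of numbers 1, 3 and 4. Number 2 was lowest and number 1 highest in both groups, with differences of -1.17 and 1.04 (± 0.11, SE). WDR74, which acts on the precursor of the large subunit, and NOP16 followed the same order at these numbers, at -0.88 and -0.73 for number 2 and 0.89 and 0.95 for number 1.

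In the complex of PES1 and WDR12, WDR12 was lower at number 4 (-0.97 ± 0.12) and PES1 higher (0.34 ± 0.12, limma, adjusted p = 0.0481). The call of PES1 was lost without number 2 (0.13) and without number 3 (0.38), and without number 2 its adjusted p for any difference was 0.2165 (limma). PES1 measured 9.23 and 9.15 in OICR-9429 and untreated cells of number 4, close to 9.28 and 9.11 at number 1, and was lowest at number 2 (8.29 and 8.55). NOP2 was at 6.87 and 6.74 in OICR-9429 and untreated cells of number 4 (difference 0.45 ± 0.15), although its test over all numbers did not pass, and the call at number 4 was lost without number 2 (0.36) or number 3 (0.425). NPM1, nucleophosmin, an abundant nucleolar chaperone, was lower at number 4 (-0.58 ± 0.13) and did not pass at the others, and without number 4 or number 3 its adjusted p for any difference was 0.372 or 0.0852 (limma). RRP1B, NIP7 and RRS1 were higher at number 1 (0.67, 0.72 and 0.49) and lower at number 4 (-0.87, -0.44 and -0.34). At number 4, NIP7 and RRS1 did not pass after quantile normalization (-0.25 and -0.094) or without number 1 (-0.23 and -0.205), where their adjusted p for any difference was 0.295 and 0.0968 (limma), and RRS1 did not without number 3 (-0.32). At number 1, RRS1 did not pass after quantile normalization (0.36) or without number 4 (0.42). RRP1B did not pass at number 1 without number 4 (0.42), where its adjusted p for any difference was 0.0747 (limma).

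RPP40 measured 8.88 in OICR-9429 and 8.76 in untreated cells of number 1, against 7.48, 8.08 and 6.67 in OICR-9429 and 6.95, 7.82 and 6.95 in untreated cells of numbers 2 to 4. Its difference was 1.495 ± 0.16 (SE), higher, at number 1, and it was lower at numbers 2 (-0.65) and 4 (-1.19). At number 2 RPP40 did not pass without number 1 (-0.165).

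MYC itself was highest at number 1 and lowest at number 2 in both groups. Of the 29 genes, 9 were also lowest at number 2 in both groups, and 15 were lowest at number 4 in both. MYC measured 10.49, 9.42, 10.23 and 10.14 in OICR-9429 cells, against 10.44, 9.72, 10.33 and 10.01 in untreated cells. It was higher at number 1 (0.49 ± 0.13, limma, adjusted p = 0.034) and lower at number 2 (-0.70, adjusted p = 0.00551), and its difference of -0.03 at number 4 did not pass.

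The other genes of ribosome biogenesis were taken from 6 lists, of which 121 of 128 genes were measured. OICR-9429 gave 0 genes past the threshold and 0 at an unadjusted p under 0.05 in limma, with 4 at that limit with the replicate block (TAF1A, TAF1B, UTP15 and NOC2L, each adjusted p = 0.841). The median difference was 0.035. At number 1, 69 of 121 were higher and 0 lower, with a median of 0.52, and at number 4, 77 were lower and 15 higher, with a median of -0.62, beside the background shares given above.

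At number 1, 5 of 11 other Pol I genes, 4 of 12 other snoRNP genes, 29 of 39 small subunit genes, 19 of 37 large subunit genes, 6 of 10 MRP and P genes and 6 of 12 exosome genes were higher. At number 2, 35 of 121 were lower and 20 higher, against 11.6% and 15.4% of all probe sets, and 5 of the 11 other Pol I genes were among those higher. ESF1, a small subunit factor, had the clearest difference between numbers, at -2.64 ± 0.15 for number 4 and 1.17 for number 2. TAF1A and TTF1, both Pol I transcription factors, were lower at number 4 (-1.94 and -1.28) and higher at number 2 (0.88 and 0.69). MPHOSPH10 (-1.49), MAK16 (-1.60) and RRP15 (-1.60) were likewise lower at number 4.

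Some list genes went the other way at number 4. RUVBL2, an ATPase of snoRNP assembly, was higher (1.07 ± 0.14), as was NOC2L (0.65 ± 0.13). RPP25, the dimmest at a mean of 4.66, was below the olfactory percentile and stood at 1.13. RPP38 (-1.01), POP5 (-0.81), NUFIP1 (-0.83), EXOSC3 (-1.23) and EXOSC9 (-1.19) were lower. GAR1, of the pseudouridylation snoRNPs, did not pass at any number, and EXOSC7 was at -0.02.

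Other measures also moved with the numbers. Gene length (the genomic span in RefSeq) and the difference at number 4 had a Spearman correlation of -0.34 over the 29 genes and -0.308 over 17709 probe sets with a symbol (-0.417 over the 9286 above the median level). At number 2 it was 0.397 over the 29 genes and 0.31 over those with a symbol, at number 3 0.299 and 0.18, and at number 1 -0.012 and 0.0879. The 20 genes lower at number 4 had a median length of 27.2 kb, the 3 higher genes 11.9 kb and the 6 that did not pass 11.5 kb. Genes share the same arrays, so these are descriptions.

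**Figure D5:**
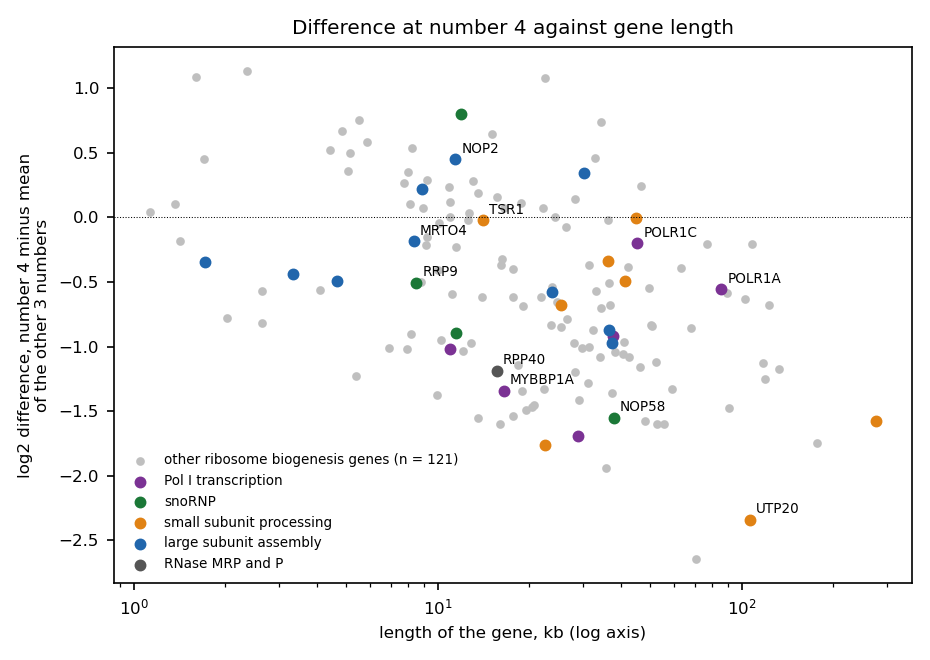
Log2 difference of number 4 from the mean of the remaining 3 numbers, by gene length in kb on a log axis. Coloured points are the 29 measured genes by step and grey points 121 other ribosome biogenesis genes. UTP20, at 106.5 kb, lies lowest of the coloured points at -2.34, and the Spearman correlation over the coloured points is -0.34.

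Markers of other cells were set beside the numbers. The summed level of 6 myeloid markers was 35.6 in OICR-9429 and 36.3 in untreated cells of number 4, against 32.2 to 33.7 and 32.4 to 34.6 at the other numbers, with 3 higher at number 4 and 2 lower at number 1, and LYZ at 3.79, near the olfactory median of 3.39. The sum of 3 fibroblast markers was 18.7 and 18.8 at number 4, against 17.2 to 17.5 and 18.0 to 18.4, with 2 higher and LUM at 3.23. B-cell, erythroid and epithelial markers had 1, 1 and 0 higher and 1, 1 and 1 lower at number 4. T-cell markers also moved, with a sum of 96.2 in both arrays of number 4, against 90.01 to 93.2 and 91.4 to 94.0. Of these 10 markers, 5 were higher and 2 lower at number 4. Over all probe sets 26.3% were higher and 25.5% lower there. At number 1, T-cell markers had 1 higher and 1 lower, erythroid markers 1 lower and epithelial markers 1 higher. At number 2, 4 of 10 T-cell markers and 1 B-cell marker were lower and 0 markers higher. At number 3, 1 T-cell marker was higher and 1 myeloid marker lower. Of all probe sets, 10.6% were higher and 6.14% lower at number 1, and 15.4% higher and 11.6% lower at number 2. For number 3 these shares were 1.18% and 0.2%. In bulk RNA a change in the cells present and a change in RNA per cell cannot be told apart. The part of gene length and of these markers in the differences between numbers was not tested.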

How the data were processed

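Expression was measured on 8 Affymetrix arrays. The authors deposited log2 expression values per probe set. Per the submitters' processing notes, the tools were RMA and Transcriptome Analysis Console. No version of either is stated. A whole-transcript (WT) kit labelled the RNA, per the labels. Scanner files were not used, so signal over background is unknown, and precision is limited by how few arrays there are.

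Gene symbols came from the platform annotation and Entrez IDs in RefSeq (GRCh38.p14): 17709 had 1 symbol, 0 several and 3739 none. Groups were compared with limma 3.58.1 (R 4.3.3; lmFit, eBayes, two-sided) over all 21448 probe sets with Benjamini-Hochberg adjustment and a threshold of 0.05. Numbers were tested with number and treatment in 1 model. The OICR-9429 fit with the replicate block and the fit of numbers were tested on simulated data. The fit without the block and the alternatives were not.

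Titles of the samples give the replicate numbers. For same-numbered arrays, departures from the mean of their group correlated at 0.696, 0.748, 0.566 and 0.865, above the limit of 0.1, so a fit with the replicate block was run beside the one without. Members, steps, lists and motifs were chosen with earlier results of these data known. Genes shown on every array were those with the largest and the smallest F over numbers in each step and the smallest unadjusted p for treatment. For each list the 2 largest F and the smallest p were named. Other members were described by step, and FBL, LYAR, DDX21 and PES1 were given more values after these had been seen. Alternatives were another normalization, centring, a level filter, trend and robust variance, the treatment term and leaving out arrays or numbers.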

Additional observations from a re-analysis of the deposited data

Results flagged for a closer look

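In 58 groups of 4 arrays (29 genes, treated and untreated apart), 3 had a single array well away from the rest. About 2.9 such groups arise by chance (1 in 20). All 3 are arrays of number 4. NCL was 10.68 in OICR-9429 cells of that number, against 11.67 to 11.83 in the other OICR-9429 cells, and 10.79 in untreated cells of that number, against 11.70 to 11.82 in the other untreated cells. NOP58 was 9.07 in OICR-9429 cells of number 4, against 10.49 to 10.76 in the other OICR-9429 cells.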

How the results depend on the processing

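Under every alternative run, 0 members and 0 probe sets passed for OICR-9429. The replicate block changed no call and gave 1191 unadjusted p-values under 0.05, against 105 without it, 165 with trend and robust variance, 5 above the median level and 82 to 271 without 1 array. Of members at that limit there were 0, but 1 with the block and without number 1 or without number 4. Without 1 number the block gave 942 to 1482 probe sets. The 26 members differing between numbers were 20 to 28 under the alternatives.

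For number 3, higher probe sets (254) and members (1) became 431 and 2 without the treatment term, 1694 and 10 with trend and robust variance, and 1321 and 8 above the median level, while quantile normalization gave 0 members. Lower probe sets (43) became 85, 442 and 407, and 1 member with trend and robust variance. For number 2, higher members (0) became 2 with trend and robust variance and 2 above the median level, where probe sets higher at number 4 (5637) became 3238, fewer being tested. Leaving out a number gave these ranges. All differing probe sets ran from 2979 (without number 4) to 10394. Higher probe sets at number 1 ran from 1255 to 3216, at number 2 from 1544 to 3652 and at number 3 from 146 to 2054. Lower ones ran at number 1 from 927 to 2273 and at number 3 from 43 to 729. Members higher ran at number 2 from 0 to 6, at number 3 from 0 to 12 and at number 4 from 1 to 4. Members lower ran at number 2 from 5 to 17 and at number 3 from 0 to 2. MYBBP1A at number 2 ran from -0.99 (without number 4) to 0.0775 (without number 1), against -0.43. The cause of these moves was not tested. Each member has 1 probe set, so the mean over probe sets was not a separate value.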
